A study of Mus musculus with 36 samples.

Results

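The comparison described here is that of tumour-bearing (TB) liver at ZT 16, in the dark and feeding phase, with TB liver at ZT 4, in the light and resting phase. Its 6 arrays, 3 titled TB mouse liver ZT 16 and 3 titled TB mouse liver ZT 4, were chosen by their titles from the 36 arrays of the series. ZT is Zeitgeber time, counted in hours from lights on in a cycle of 12 h of light and 12 h of dark. The TB mice carried p53fl/fl, within an engineered genotype that is not given in full here, on a C57BL/6 background, and they are labelled with lung adenocarcinoma, a tumour of another organ than the one measured. The WT mice were C57BL/6 as well, with 3 arrays each at ZT 16 and ZT 4, and both genotypes were also sampled at ZT 0, 8, 12 and 20. In p53fl/fl mice the p53 gene is flanked by loxP sites, so that it is lost only from cells that have seen the Cre recombinase. How Cre was given, the age and sex of the mice and whether each array stands for another mouse could not be learned from the labels, so the tests rest on the spread among the labelled samples, part of which may be technical.

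The liver clock is a feedback loop of transcription. The activators BMAL1 (gene Arntl), CLOCK and NPAS2 bind E-box sequences and switch on the Per and Cry genes, whose products repress the activators in turn. A second loop runs through the REV-ERB repressors (Nr1d1, Nr1d2), which hold back Arntl and Npas2, and an output layer of PAR bZIP factors (Dbp, Tef, Hlf) acts through D-box sequences. In liver this machinery, feeding and systemic signals such as glucocorticoids and body temperature together set daily rhythms of metabolic genes.

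Values are the authors' probe set intensities, taken as log2(intensity + 16) with 1 probe set for each of 22180 genes. A level below is a value on that scale, a difference is the mean at ZT 16 minus the mean at ZT 4, and differences of dim genes are understated. A fold is that difference taken back from log2, with the 16 still added. It is therefore not a ratio of intensities, and it too is understated for dim genes. Replicate arrays correlated over genes at r = 0.978 to 0.988 at ZT 16 and at r = 0.975 to 0.988 at ZT 4, and the median standard error (SE) of a difference was 0.15. Over probe sets without a gene symbol, the 36 arrays fell into a set of 24 and a set of 12, which the labels do not name. TB ZT 16 replicate 1 and TB ZT 4 replicate 1 belonged to the smaller set, and replicates 2 and 3 of both times to the larger one, so that the sets are balanced over the comparison. The origin of these sets was not tested. Albumin (Alb), the main secreted protein of hepatocytes, lay between 13.53 and 13.66 in all 6 arrays. None of 115 measured marker genes of 12 cell types and tissues was called by limma at an adjusted p under 0.05, beside 0.185% of all genes. An unadjusted p under 0.05 was found in 3 of the 115, beside 5.38%. The medians of these marker lists ran from -0.02 to 0.18. In bulk liver, fewer cells of a type and less RNA per cell cannot be told apart.

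Promoter sequence is shown for 5 genes that were higher at ZT 16, because their expression differences are among those the comparison turns on and each window holds a clock-related motif. The windows are the 250 bases before a start of the gene in RefSeq, assembly GRCm38.p6, written 5′ to 3′ on the gene's strand. Where a gene had several starts, the window shown is the first that held the motifs given for it. Capitals mark the E-box CACGTG and the D-box TTATGTAA or TTACGTAA, searched on both strands, and no E-box shares letters with a D-box in the windows shown.
Per1, chr11:69098699-69098948, plus strand: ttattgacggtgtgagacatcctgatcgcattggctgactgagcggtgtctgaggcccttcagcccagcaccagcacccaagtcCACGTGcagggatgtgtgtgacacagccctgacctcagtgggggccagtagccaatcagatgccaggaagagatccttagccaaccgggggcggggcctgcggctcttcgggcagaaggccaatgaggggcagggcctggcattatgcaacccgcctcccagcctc
Cry1, chr10:85185055-85185304, minus strand: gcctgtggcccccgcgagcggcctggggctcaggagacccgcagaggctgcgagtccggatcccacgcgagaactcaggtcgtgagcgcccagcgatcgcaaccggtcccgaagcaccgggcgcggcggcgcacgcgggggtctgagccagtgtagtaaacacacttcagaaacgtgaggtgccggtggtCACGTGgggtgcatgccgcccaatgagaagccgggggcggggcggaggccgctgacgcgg
Lonrf3, chrX:36328159-36328408, plus strand: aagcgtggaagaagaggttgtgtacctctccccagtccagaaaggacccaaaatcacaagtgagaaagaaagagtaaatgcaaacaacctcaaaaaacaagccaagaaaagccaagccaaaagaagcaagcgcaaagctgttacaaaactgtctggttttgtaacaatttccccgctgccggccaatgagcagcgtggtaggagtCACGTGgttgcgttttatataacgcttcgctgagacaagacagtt
Coq10b, chr1:55052520-55052769, plus strand: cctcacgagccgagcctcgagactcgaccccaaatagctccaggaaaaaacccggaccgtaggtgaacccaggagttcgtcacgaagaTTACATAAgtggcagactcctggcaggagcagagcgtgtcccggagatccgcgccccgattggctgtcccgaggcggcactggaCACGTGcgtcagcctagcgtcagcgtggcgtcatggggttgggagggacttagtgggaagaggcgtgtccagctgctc
Per3, chr4:151044666-151044915, minus strand: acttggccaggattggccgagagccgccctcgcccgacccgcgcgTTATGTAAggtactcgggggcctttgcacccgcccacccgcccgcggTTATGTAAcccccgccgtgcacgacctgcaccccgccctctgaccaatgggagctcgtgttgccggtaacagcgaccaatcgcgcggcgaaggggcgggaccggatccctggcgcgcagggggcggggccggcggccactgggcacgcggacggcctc
The E-box of Per1 began 166 bases before the start, that of Cry1 60, that of Lonrf3 45 and that of Coq10b 78 bases before it. Coq10b also held a D-box, read on the opposite strand, 162 bases before the start. Per3 held 2 copies of the D-box, 205 and 158 bases before the start. Of the 26 genes called higher at ZT 16, 23 had a window in the table, and 6 of these held the E-box (Coq10b, Cry1, Hsph1, Lonrf3, Per1 and Pfkfb3), or 26.1%, against 6.86% of 27025 genes. The D-box was in 4 of the 23 (Coq10b, Gde1, Homer2 and Per3), or 17.4%, against 1.1% of all genes. Of 13 genes called lower at ZT 16 with a window, 1 held the E-box (Ubxn1) and 0 held the D-box. A gene was counted if any of its windows held the motif, among the called genes and among all genes alike. A match is a description of these letters and not a measured binding site.

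The question of this comparison is which genes of the tumour-bearing liver differ between the active and the resting phase. At ZT 16, against ZT 4, the TB livers had higher levels of the clock repressors Per1, Per3 and Cry1, of the clock-driven genes Usp2 and Wee1 and of the chaperones Hspa1b, Hsph1 and Hspa8. They had lower levels of Nr1d1 and Npas2, of the peroxisomal carnitine transferase Crot and of Insig2, a brake on cholesterol synthesis. In the limma fit over all 36 arrays with Benjamini-Hochberg adjustment, 41 of 22180 genes were called (0.185%), 26 higher (0.117%) and 15 lower (0.0676%). In all 41 the 3 arrays of one time lay beyond the 3 of the other, which was so for 2613 of all genes (11.8%), higher at ZT 16 in 5.79% and lower in 5.99%. Genes whose times do not overlap have the same sign in both array sets by construction. Without adjustment, 1194 genes had a p under 0.05 (5.38%), 527 of them higher (2.38%) and 667 lower (3.01%). With the replicate number as a block, 35 genes were called over 36 arrays and 98 over the 6 arrays alone, and with the array set as a block 95. The count was 16 without TB ZT 16 replicate 1, 22 without replicate 2 and 11 without replicate 3 of that time, and 17, 8 and 22 without TB ZT 4 replicate 1, 2 and 3. The 7 genes Usp2, Nr1d1, Wee1, Cry1, Npas2, Lonrf3 and Per3 passed the threshold whichever of the 6 arrays was left out.

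**Figure D1:**
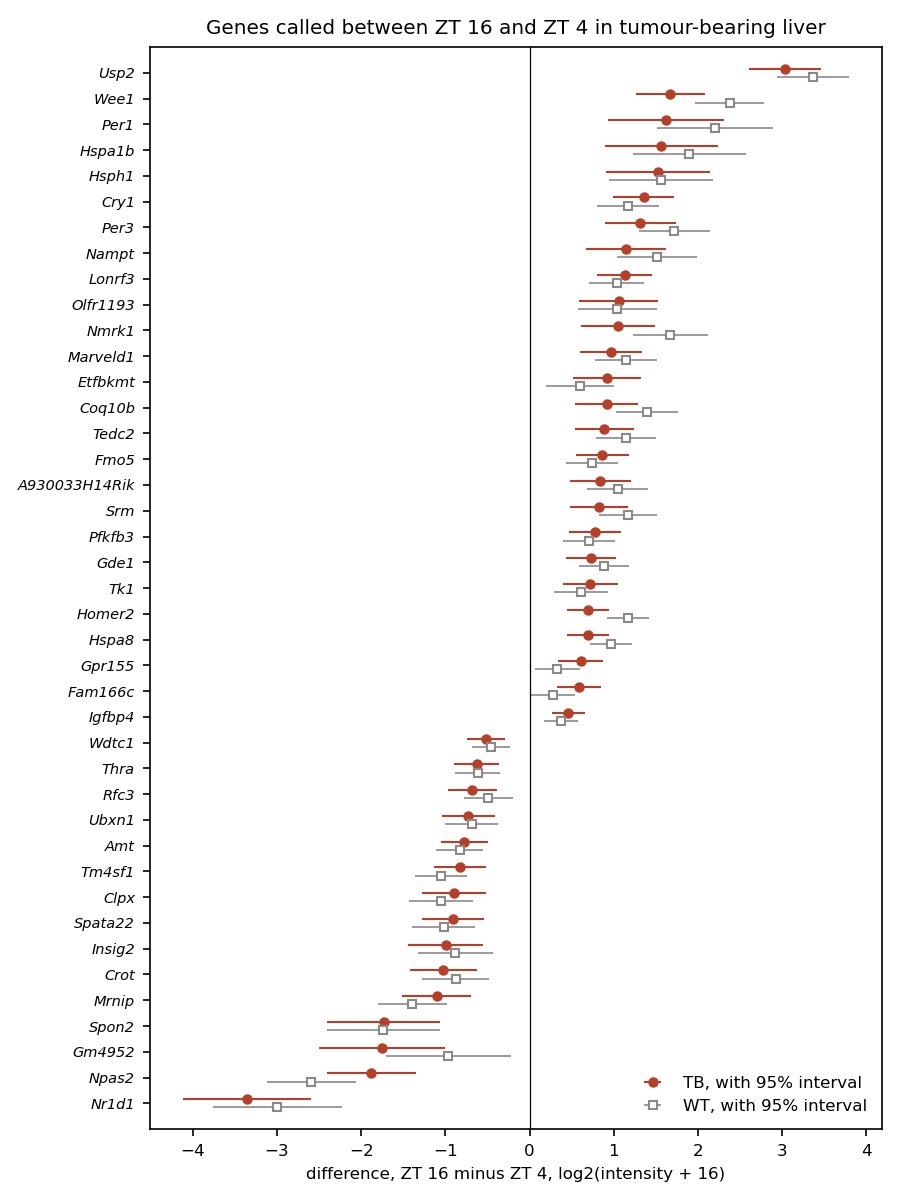
Differences between ZT 16 and ZT 4 on the log2(intensity + 16) scale for the 41 genes called in TB liver, with filled red circles for TB and open grey squares below them for WT, and lines for the 95% intervals of the limma fit. Usp2 has the largest positive difference (3.03 in TB) and Nr1d1 the largest negative one (-3.36 in TB), and WT differences lie on the same side of 0 for all 41.

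Among the clock activators, Npas2, the partner of BMAL1 that can stand in for CLOCK, fell. Its levels were 5.33, 5.50 and 5.14 at ZT 16, against 7.43, 7.62 and 6.57 at ZT 4. The times did not overlap, and ZT 4 replicate 3 was the lowest of its time. The difference was -1.88 ± 0.26 (SE, adjusted p 0.000209), a 3.69-fold lower value. Arntl, which encodes the core activator BMAL1, had 8.12, 7.77 and 7.97 at ZT 16, against 8.33, 8.23 and 7.61 at ZT 4. These values overlapped, and the difference was -0.10 ± 0.19 (adjusted p 1.00). Clock differed by -0.29 ± 0.14 (adjusted p 0.936), with ZT 4 replicate 3 inside the range of ZT 16. The 2 times lie on either side of the daily low of Arntl. Its TB means at ZT 0, 4, 8, 12, then 16 and then 20 were 8.96, 8.06, 5.55, 5.54, 7.95 and 8.83, while those of Npas2 were 8.56, 7.21, 5.30, 5.16, 5.33 and 7.94.

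All 5 measured genes of the period, cryptochrome and Ciart group had positive differences with arrays that did not overlap, beside 5.79% of all genes higher without overlap. Of these 5 genes 3 were called higher, beside 0.117% of all genes. The median over these 5 was 1.32, beside 0.01 over all genes. Per1, a repressor that also responds to glucocorticoids, had 7.46, 8.21 and 7.70 at ZT 16, against 5.82, 6.34 and 6.35 at ZT 4. The lowest dark-phase array was above the highest light-phase one, and the difference was 1.62 ± 0.34 (adjusted p 0.0319, 3.08-fold higher). Its adjusted p was 0.0654 to 0.216 over the 6 fits that each left out 1 array, highest without TB ZT 4 replicate 1. Per3, a period gene with a lesser part in the core loop, had 7.45, 7.22 and 7.07 at ZT 16, against 5.77, 5.77 and 6.25 at ZT 4. Its difference was 1.32 ± 0.21 (adjusted p 0.0017, 2.49-fold higher).

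Cry1, the late repressor of the loop, had 7.67, 7.43 and 7.39 at ZT 16, against 6.45, 6.00 and 5.98 at ZT 4. Replicate 1 was the highest of its time at both times. The difference was 1.35 ± 0.18 (adjusted p 0.00013, 2.56-fold higher). Ciart, which encodes the repressor CHRONO, had 6.03, 6.23 and 6.40 at ZT 16, against 5.56, 5.01 and 5.45 at ZT 4. Its difference of 0.88 ± 0.24 did not pass (adjusted p 0.173), and Cry2 differed by 0.25 ± 0.17 (adjusted p 1.00). The daily courses of these repressors were staggered. Per1 and Per3 had their highest TB means at ZT 12, at 8.84 and 7.81, and Cry1 had its highest at ZT 20, at 8.07, so that ZT 16 lies on the falling side of Per1 and Per3 and on the rising side of Cry1. Per2 is not analysed here.

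**Figure D2:**
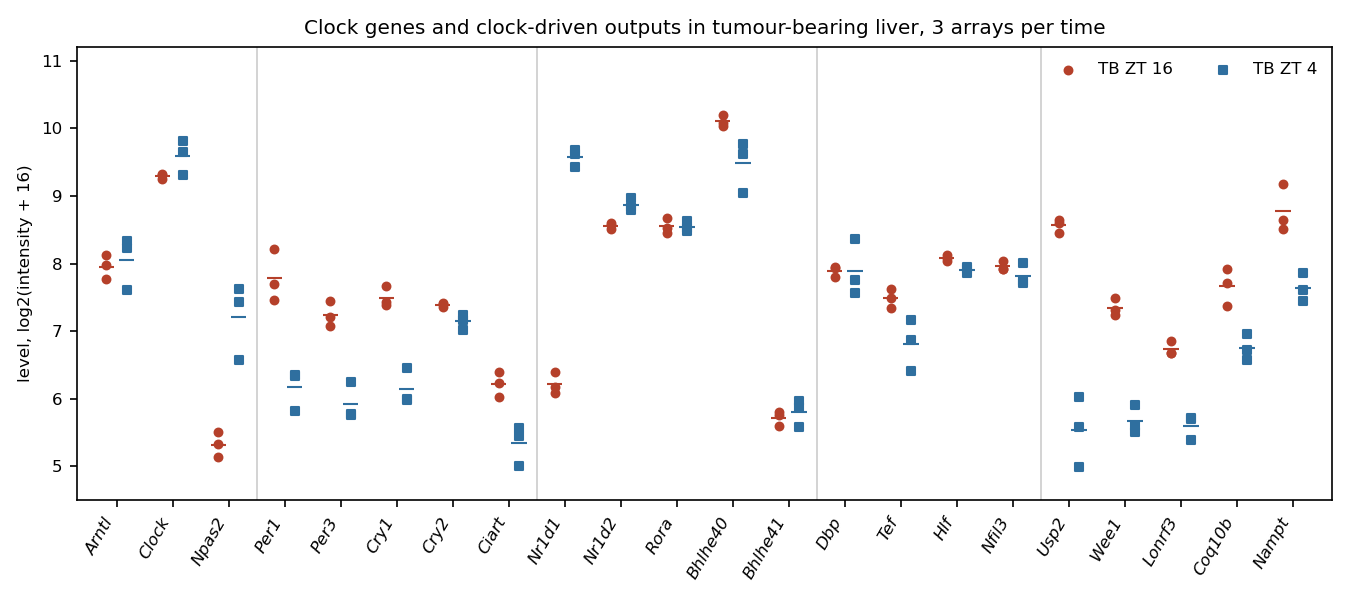
Levels, log2(intensity + 16), of clock genes and clock-driven outputs in the 6 TB arrays, with red circles for ZT 16 to the left of blue squares for ZT 4 and short lines for the group means. The groups run from activators over period, cryptochrome and Ciart genes, the REV-ERB, ROR and DEC loops and the PAR bZIP factors with Nfil3 to outputs, and the widest gaps are those of Nr1d1 (6.22 against 9.58) and Usp2 (8.56 against 5.53).

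In the second loop, Nr1d1, which encodes REV-ERBα, had the largest negative difference of the called genes. Its levels were 6.09, 6.17 and 6.40 at ZT 16, against 9.62, 9.68 and 9.43 at ZT 4. The spread within each time was small beside the gap, and the difference of -3.36 ± 0.37 (adjusted p 6.99e-06) is a 10.2-fold lower value. Its paralogue Nr1d2 had 8.57, 8.51 and 8.60 at ZT 16, against 8.84, 8.96 and 8.79 at ZT 4. The arrays of Nr1d2 did not overlap either, but the difference was -0.31 ± 0.28 and did not pass (adjusted p 1.00). The SE comes from the whole fit, so it also holds the spread at other times. Rora, an activator that competes with the REV-ERBs, differed by 0.01 ± 0.12 (adjusted p 1.00). Of the DEC repressors, Bhlhe40 differed by 0.62 ± 0.21 (adjusted p 0.499) without overlap and Bhlhe41 by -0.09 ± 0.32 (adjusted p 1.00). TB means of Nr1d1 over the 6 times were 6.89, 9.58, 9.57, 8.03, 6.22 and 5.25.

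None of the 3 PAR bZIP activators and their antagonist Nfil3 was called. Dbp, the best known of them, had 7.95, 7.79 and 7.94 at ZT 16, against 7.57, 7.75 and 8.36 at ZT 4. The values overlapped, and the difference was 0.00 ± 0.24 (adjusted p 1.00). Its TB means over the 6 times were 5.82, 7.89, 10.05, 9.88, 7.89 and 6.33, so that both times stood at about the same level on either side of the daily high. Tef differed by 0.67 ± 0.20 (adjusted p 0.302) and Hlf by 0.17 ± 0.14 (adjusted p 1.00), both without overlap between the times. Nfil3 differed by 0.14 ± 0.17 (adjusted p 1.00) and its arrays overlapped.

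Of 16 measured clock-driven liver outputs, 5 were called higher and 0 lower, beside 0.117% and 0.0676% of all genes. The list was written with earlier results of these data known, and its median was 0.92. Usp2, a ubiquitin protease that follows the clock in many tissues, had 8.45, 8.60 and 8.65 at ZT 16, against 5.59, 4.99 and 6.02 at ZT 4. It showed the largest positive difference among called genes, 3.03 ± 0.21 (adjusted p 1.49e-10, 8.17-fold higher), and 1 of the arrays was under 16 intensity units. Wee1, a kinase that delays entry into mitosis, had 7.31, 7.48 and 7.24 at ZT 16, against 5.92, 5.51 and 5.60 at ZT 4. Its difference was 1.67 ± 0.20 (adjusted p 2.34e-05, 3.19-fold higher).

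Lonrf3, a RING finger gene, had 6.86, 6.68 and 6.67 at ZT 16, against 5.70, 5.72 and 5.39 at ZT 4. Its difference was 1.13 ± 0.16 (adjusted p 0.000329). Nampt, the rate-limiting enzyme of NAD salvage, had 8.65, 8.51 and 9.18 at ZT 16, against 7.85, 7.60 and 7.45 at ZT 4. The difference of Nampt was 1.14 ± 0.23 (adjusted p 0.0286). Coq10b, a coenzyme Q binding protein of mitochondria, had 7.71, 7.37 and 7.92 at ZT 16, against 6.96, 6.57 and 6.72 at ZT 4, a difference of 0.91 ± 0.18 (adjusted p 0.024). Leaving out 1 array put the adjusted p of Nampt between 0.0351 and 0.271 and that of Coq10b between 0.0186 and 0.236, both highest without TB ZT 16 replicate 3. A further 6 outputs were higher at ZT 16 without overlap and did not pass, namely the uridine phosphorylase Upp2 (1.04, adjusted p 0.141), the tetraspanin Tspan4 (0.92, adjusted p 0.136), the transporter Slc16a12 (0.80, adjusted p 0.197), the phosphatidate phosphatase Lpin1 (1.00, adjusted p 0.454), Alas1, which makes the first step of haem synthesis (1.02, adjusted p 0.657), and the glycogen synthase Gys2 (0.74, adjusted p 0.184). Grk5 (-0.60, adjusted p 0.553) and the triglyceride lipase Pnpla2 (-0.29, adjusted p 1.00) were lower without overlap and did not pass. With the called ones, 11 of the 16 outputs were higher and 2 lower without overlap, beside 5.79% and 5.99% of all genes.

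**Figure D3:**
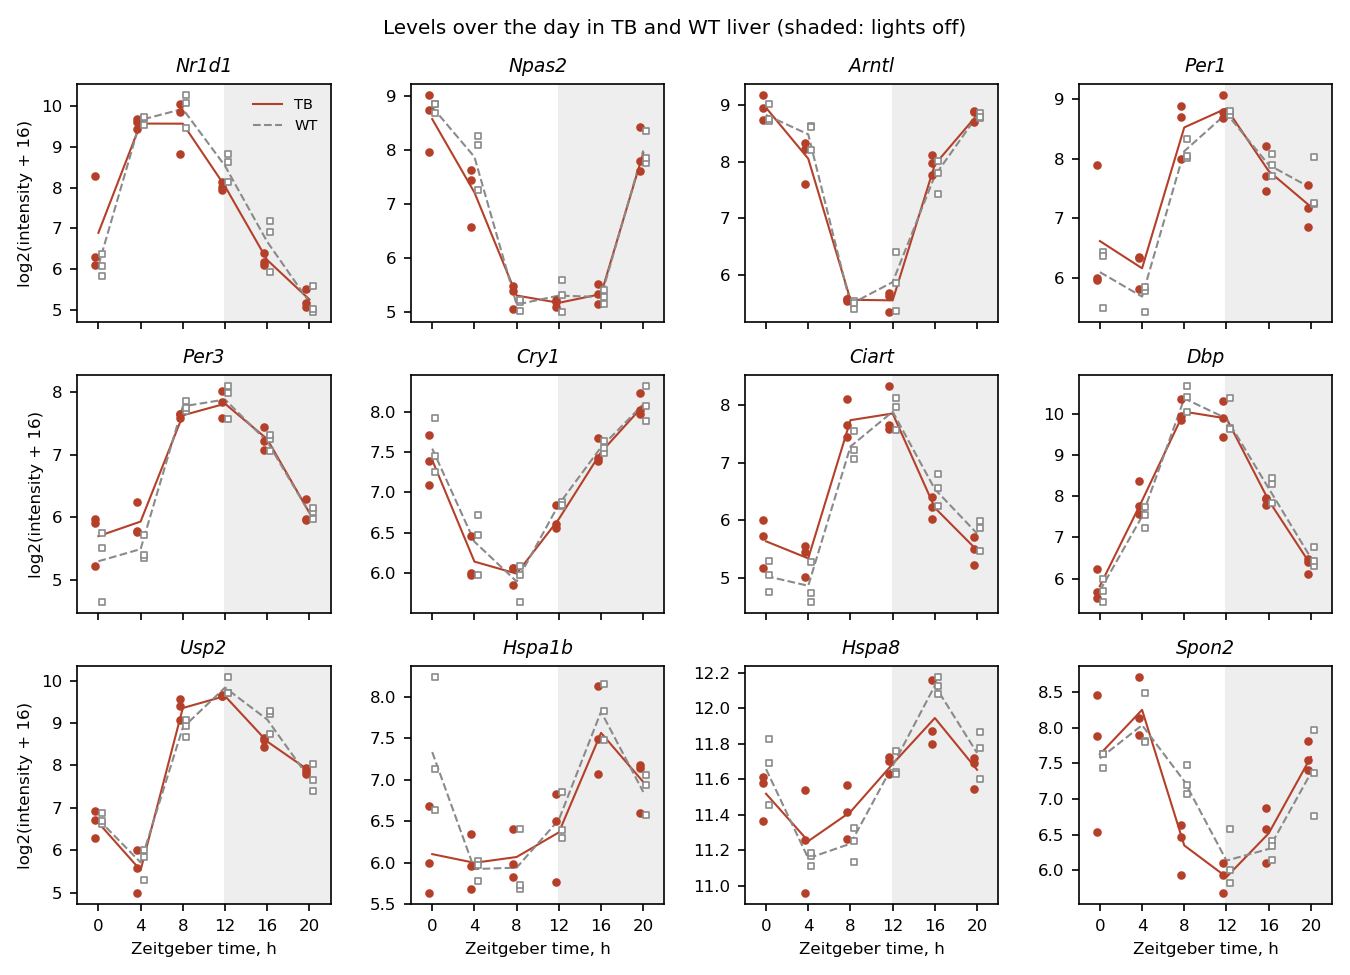
Levels, log2(intensity + 16), of 12 genes over Zeitgeber time in h, with red circles and solid lines (means) for TB, open grey squares and dashed lines for WT, 3 arrays per point in time, and shading for the dark phase. At ZT 16 the TB means of Hspa1b (7.56) and Hspa8 (11.95) were the highest of the 6 times, while Nr1d1, Npas2 and Spon2 stood low and Dbp was at its ZT 4 level.

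Heat shock chaperones were the other group with several called members, and this list too was chosen with earlier results of these data known. Of 17 measured, 3 were called higher and 0 lower, beside 0.117% and 0.0676% of all genes. A positive difference was found in 16, beside 11409 of all 22180 genes. The arrays of 12 were higher at ZT 16 without overlap, beside 5.79% of all genes. The median over the 17 was 0.52. Hspa1b, the inducible HSP70, had 7.07, 7.49 and 8.13 at ZT 16, against 5.96, 5.68 and 6.35 at ZT 4. ZT 16 replicate 3 was the highest, and the difference was 1.56 ± 0.33 (adjusted p 0.0335, 2.96-fold higher). Hsph1, the HSP110 that recharges HSP70, had 8.20, 8.11 and 8.83 at ZT 16, against 6.94, 6.62 and 7.00 at ZT 4. Its difference was 1.53 ± 0.30 (adjusted p 0.024, 2.88-fold higher).

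Hspa8, the constitutive HSC70, had 11.80, 11.87 and 12.16 at ZT 16, against 11.26, 10.96 and 11.54 at ZT 4, a difference of 0.69 ± 0.12 (adjusted p 0.00823). All 3 genes were lowest in replicate 2 and highest in replicate 3 at ZT 4. Without TB ZT 16 replicate 3 the adjusted p was 0.308 for Hspa1b, 0.236 for Hsph1 and 0.123 for Hspa8, and without TB ZT 4 replicate 2 that of Hspa8 was 0.139. Over the 6 arrays alone with the replicate block Hspa8 had an adjusted p of 0.0506. Hspa8 had 4 probe sets, of which the one with the highest mean was used. Of 13 alternative settings of the limma fit, 8 kept its call, and its highest adjusted p among them was 0.9995. The 14 other members did not pass, among them Chordc1, a co-chaperone of HSP90 (0.79, adjusted p 0.0559), Hsp90aa1, the inducible HSP90 (0.80, adjusted p 0.444), Hspa1a (0.69, adjusted p 0.385) and the HSP40 Dnajb1 (0.50, adjusted p 0.512), these 4 without overlap. The mitochondrial chaperonins Hspd1 and Hspe1 differed by 0.17 and 0.51 with overlapping arrays. Cirbp, a cold-inducible RNA-binding protein, differed by -0.41 ± 0.24 (adjusted p 1.00), and its 3 arrays at ZT 16 were below those at ZT 4.

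Further genes called higher included enzymes of metabolism. Pfkfb3, which makes the activator of the glycolytic enzyme phosphofructokinase, had 6.15, 6.56 and 5.90 at ZT 16, against 5.25, 5.53 and 5.51 at ZT 4 (0.78 ± 0.15, adjusted p 0.0227). Srm, the spermidine synthase, had 8.40, 8.11 and 8.58 at ZT 16, against 7.72, 7.37 and 7.51 at ZT 4 (0.83 ± 0.17, adjusted p 0.0286). Fmo5, a flavin monooxygenase of liver, had 11.23, 11.15 and 11.22 at ZT 16, against 10.61, 10.24 and 10.16 at ZT 4 (0.87 ± 0.15, adjusted p 0.00823). In each of these 3 genes the 2 times were apart in all arrays, and Fmo5 was the tightest at ZT 16.

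Nmrk1, a nicotinamide riboside kinase that like Nampt feeds NAD synthesis, had 8.03, 8.18 and 7.81 at ZT 16, against 7.10, 7.01 and 6.75 at ZT 4 (1.05 ± 0.22, adjusted p 0.0319). Marveld1 differed by 0.96 ± 0.18 (adjusted p 0.0153), Tedc2 by 0.89 ± 0.17 (adjusted p 0.0222) and Etfbkmt, a methyltransferase of the electron transfer flavoprotein, by 0.92 ± 0.20 (adjusted p 0.0427). Over the fits that left out 1 array, the adjusted p reached 0.193 for Pfkfb3 and 0.163 for Nmrk1 without TB ZT 16 replicate 2, 0.248 for Srm without TB ZT 16 replicate 3, 0.248 for Etfbkmt without TB ZT 4 replicate 1, and 0.0807 for Fmo5, 0.168 for Marveld1 and 0.209 for Tedc2 without TB ZT 4 replicate 2. With the replicate block Etfbkmt had an adjusted p of 0.0548, and over the 6 arrays alone with that block Pfkfb3 had 0.07 and Tedc2 0.0625. The remaining genes called higher, named because they complete the 26, were the synaptic scaffold Homer2 (0.69), the phosphodiesterase Gde1 (0.73), the thymidine kinase Tk1 (0.72), the IGF binding protein Igfbp4 (0.46), Gpr155 (0.61), Fam166c (0.59), A930033H14Rik (0.84) and Olfr1193 (1.06). Of these, Tk1, Gpr155, Fam166c and Olfr1193 had adjusted p values of 0.0556 to 0.0656 with the replicate block. Over the 6 arrays alone with that block, Gde1 had 0.192, Igfbp4 0.173, Gpr155 0.0712 and Fam166c 0.160. Gpr155 had 3 probe sets. Of 13 alternative settings of the limma fit, 4 kept its call, and its highest adjusted p among them was 0.811.

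Among genes called lower, Spon2, a secreted matrix protein, had 6.87, 6.58 and 6.10 at ZT 16, against 8.71, 8.14 and 7.91 at ZT 4. The times were well apart, and the difference was -1.73 ± 0.33 (adjusted p 0.0162, 3.32-fold lower). Crot, which handles medium-chain acyl groups leaving peroxisomes, had 10.29, 10.68 and 10.34 at ZT 16, against 11.62, 11.44 and 11.32 at ZT 4 (-1.03 ± 0.19, adjusted p 0.0162). Insig2, which retains the sterol sensor SCAP in the endoplasmic reticulum, had 8.95, 9.43 and 8.51 at ZT 16, against 10.07, 10.10 and 9.71 at ZT 4 (-0.997 ± 0.217, adjusted p 0.0443). Insig2 varied most among the arrays of ZT 16, and its adjusted p was 0.0533 with the replicate block and 0.472 without TB ZT 16 replicate 3.

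Clpx, the unfoldase of a mitochondrial protease that also acts on the enzyme ALAS1, had 9.08, 9.22 and 8.83 at ZT 16, against 10.13, 9.98 and 9.71 at ZT 4 (-0.89 ± 0.19, adjusted p 0.0319). Amt, a subunit of the glycine cleavage system, had 7.27, 7.66 and 7.44 at ZT 16, against 8.18, 8.27 and 8.24 at ZT 4 (-0.77 ± 0.14, adjusted p 0.00888). Thra, the thyroid hormone receptor α whose locus overlaps that of Nr1d1 on the opposite strand, had 6.01, 6.07 and 5.97 at ZT 16, against 6.77, 6.45 and 6.72 at ZT 4 (-0.63 ± 0.13, adjusted p 0.0319). The probe set's strand was not tested, so signal from the neighbour cannot be told apart here. Without 1 array the adjusted p reached 0.159 for Spon2, 0.123 for Crot and 0.248 for Clpx (without TB ZT 16 replicate 3), 0.098 for Amt (without TB ZT 16 replicate 1) and 0.214 for Thra (without TB ZT 4 replicate 1). Over the 6 arrays alone with the replicate block Thra had 0.0799. The others called lower were Mrnip, a DNA repair factor (-1.10), Spata22 (-0.91), the tetraspanin-like Tm4sf1 (-0.82), the ubiquitin-binding Ubxn1 (-0.73), Rfc3, a subunit of the clamp loader (-0.68), Wdtc1 (-0.52) and, outside the rule for named genes and listed to complete the 15, Gm4952 (-1.75). With the replicate block, Rfc3 had an adjusted p of 0.0507 and Ubxn1 and Wdtc1 of 0.0533. Over the 6 arrays alone with that block, Rfc3 had 0.1244 and Wdtc1 0.1325.

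Over the daily course in TB liver, 14 of the 26 genes called higher had their highest mean at ZT 12, 11 at ZT 16 and 1 at ZT 20. Lonrf3, Hspa1b, Hsph1, Hspa8 and Fmo5 were among those highest at ZT 16, and Per1, Per3, Usp2, Wee1, Nampt, Coq10b and Nmrk1 among those highest at ZT 12. Of the 15 called lower, 11 had their highest mean at ZT 4. These positions are a description of means, since the choice of genes used 2 of the 6 times.

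**Figure D4:**
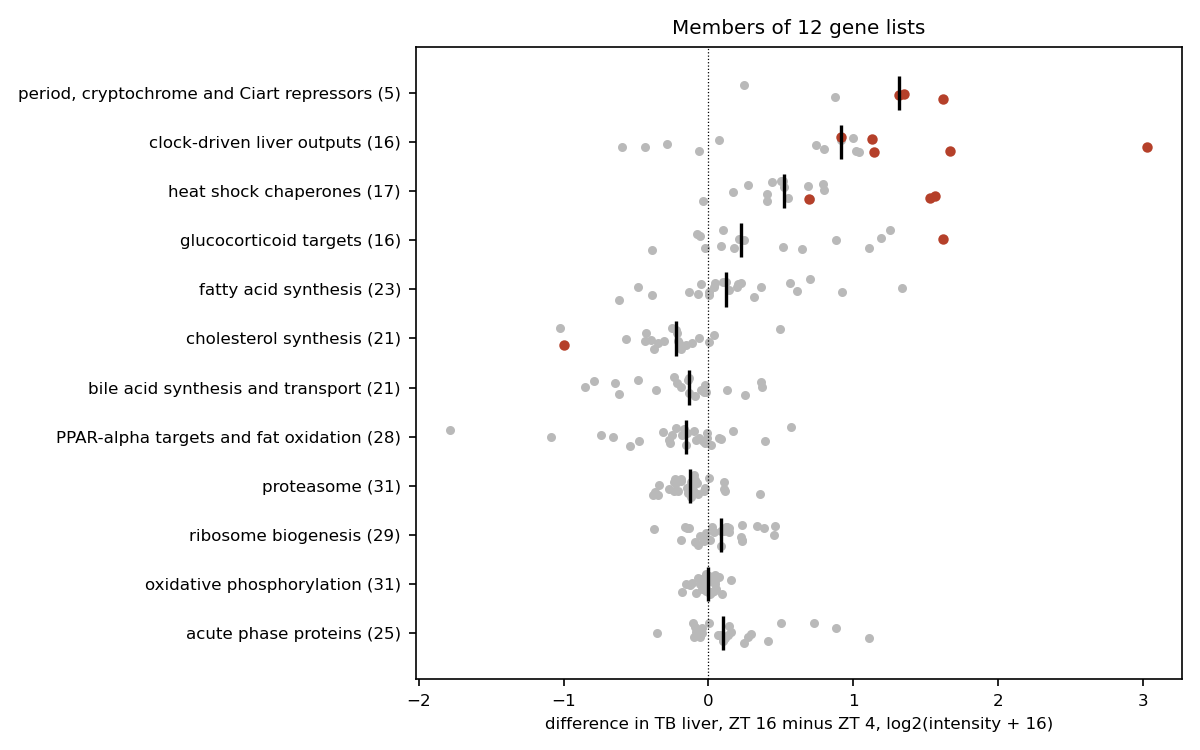
Differences between ZT 16 and ZT 4 in TB liver, log2(intensity + 16), for the measured members of 12 gene lists (number of members in brackets), with red points for called genes, grey points for the others and black bars for the list medians. The medians of the period, cryptochrome and Ciart group (1.32), the clock-driven outputs (0.92) and the chaperones (0.52) stand right of 0, and that of cholesterol synthesis (-0.22) left of it.

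The lists of lipid synthesis held 1 call, Insig2, which is a brake on cholesterol synthesis and not an enzyme of it. Of 21 measured genes of the cholesterol synthesis list, 1 was called lower (Insig2) and 0 higher, beside 0.0676% and 0.117% of all genes. No enzyme of the pathway was called. A negative difference was found in 18, Insig2 among them, beside 10771 of all 22180 genes, and the list median was -0.22. Hmgcs1, the enzyme that makes the HMG-CoA of this pathway, had 11.02, 10.91 and 10.28 at ZT 16, against 11.78, 11.84 and 11.68 at ZT 4. These did not overlap, and the difference was -1.03 ± 0.28 (adjusted p 0.164). Cyp51, the lanosterol demethylase, differed by -0.57 ± 0.22 (adjusted p 0.668), while Insig1, a target of the sterol regulator SREBP, differed by 0.49 ± 0.20 (adjusted p 0.699). Of 23 genes of fatty acid synthesis 0 were called by limma, and the median was 0.12. An unadjusted p under 0.05 was found in 5 of the 23, beside 5.38% of all genes. Thrsp, a lipogenic regulator that answers to feeding, had 11.80, 11.81 and 11.60 at ZT 16, against 10.37, 10.37 and 10.46 at ZT 4. Its arrays were far apart, but the difference of 1.34 ± 0.32 had an adjusted p of 0.0782. Srebf1, the master regulator of lipogenesis, had 9.39, 9.39 and 9.94 at ZT 16, against 8.77, 8.74 and 9.11 at ZT 4 (0.70 ± 0.21, adjusted p 0.292).

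Of 21 genes of bile acid synthesis and transport 0 were called. A negative difference was found in 17, beside 10771 of all 22180 genes, and an unadjusted p under 0.05 in 5, beside 5.38%. Hsd3b7, an early enzyme of the pathway, had 9.56, 10.11 and 9.73 at ZT 16, against 10.56, 10.86 and 10.54 at ZT 4, a difference of -0.85 ± 0.19 (adjusted p 0.0552). Abcb11, the bile salt export pump, differed by -0.61 ± 0.19 (adjusted p 0.356) and Cyp8b1, the sterol 12α-hydroxylase, by -0.79 ± 0.33 (adjusted p 0.741), both without overlap. Cyp7a1, the rate-limiting enzyme, had 10.37, 10.79 and 10.49 at ZT 16, against 9.87, 10.36 and 10.32 at ZT 4 (0.37 ± 0.31, adjusted p 1.00). It was called in WT liver, as given further on.

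PPAR-α targets and genes of fat oxidation, the programme of fasting, had 22 negative differences among 28, beside 10771 among all 22180 genes. The list held 0 calls and 1 unadjusted p under 0.05 in limma, beside 0.185% and 5.38% of all genes. Crot, the peroxisomal transferase called lower, was not on this list, so the 0 covers the listed genes only. Differences within the list ran from -1.78 to 0.57. The median of these 28 was -0.15 over all arrays, -0.44 within the smaller array set and 0.05 within the larger one. Fgf21, a fasting hormone of the liver, had 6.20, 6.78 and 6.61 at ZT 16, against 8.25, 6.93 and 6.64 at ZT 4. ZT 4 replicate 1, of the smaller set, was far above its replicates, and the difference was -0.74 ± 0.28 (adjusted p 0.641). The lipid droplet gene Cidea (-0.69, adjusted p 1.00) was likewise highest in that array, at 8.30 against 6.36 and 5.86 in the other ZT 4 arrays. Plin2, also of lipid droplets (-0.54, adjusted p 0.949), had 10.62, 10.55 and 10.28 at ZT 4, without overlap with ZT 16. Its ZT 4 replicate 1 was only slightly above replicate 2. The part of the array sets and of ZT 4 replicate 1 in these differences was not tested.

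Of genes of carbohydrate metabolism, Pfkfb3 was the only call in the glycolysis and glycogen list of 18, beside 0.185% of all genes called. Of 13 gluconeogenesis genes 0 were called, with 4 at an unadjusted p under 0.05, beside 5.38% of all genes. Ppp1r3b, which brings a phosphatase to glycogen, had 10.70, 10.73 and 10.78 at ZT 16, against 9.70, 9.29 and 9.72 at ZT 4 (1.17 ± 0.33, adjusted p 0.234). Slc37a4, the glucose 6-phosphate transporter, differed by 0.80 ± 0.20 (adjusted p 0.0967), and G6pc, the phosphatase that releases glucose, by -0.88 ± 0.30 (adjusted p 0.462) without overlap. Irs2, an adaptor of the insulin receptor that rises in fasting, had 6.84, 6.39 and 6.12 at ZT 16, against 7.62, 7.10 and 6.95 at ZT 4 (-0.78 ± 0.31, adjusted p 0.697). Of 16 glucocorticoid targets 1 was called, Per1, beside 0.185% of all genes, and the list median was 0.23. Tsc22d3, which encodes GILZ, had 8.04, 8.68 and 8.07 at ZT 16, against 7.11, 6.66 and 7.26 at ZT 4 (1.26 ± 0.33, adjusted p 0.139), and Zbtb16 differed by 1.20 ± 0.34 (adjusted p 0.22).

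Lists of protein turnover and energy supply held no calls. Of 31 proteasome genes 26 had a negative difference, beside 10771 of all 22180 genes, and the list median was -0.13. An unadjusted p under 0.05 was found in 6 of the 31, all negative, beside 3.01% of all genes lower. Psmd11, a lid subunit, had 9.64, 9.75 and 9.93 at ZT 16, against 10.28, 10.16 and 10.04 at ZT 4 (-0.39 ± 0.10, adjusted p 0.0982). In the autophagy list of 22 the median was -0.09, with 5 unadjusted p under 0.05, beside 5.38% of all genes. The receptor Sqstm1 differed by -0.33 ± 0.09 (adjusted p 0.179) and Gabarapl1 by -0.74 ± 0.21 (adjusted p 0.254), both without overlap. Ribosome biogenesis had a median of 0.09 over 29 genes and 4 unadjusted p under 0.05, beside 5.38% of all genes. Its member Rrp12 differed by 0.45 ± 0.12 (adjusted p 0.197). The 31 genes of oxidative phosphorylation lay between -0.18 and 0.16 with a median of -0.01 and 0 unadjusted p under 0.05.

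Inflammatory lists held no calls between the 2 times. Of 25 acute phase proteins 0 were called and 0 had an unadjusted p under 0.05. Their median was 0.10 over all arrays, 0.30 in the smaller set and 0.03 in the larger set. Saa3, an inducible serum amyloid, had 7.12, 6.86 and 7.28 at ZT 16, against 6.49, 5.81 and 6.77 at ZT 4 (0.73 ± 0.37, adjusted p 0.943). Of 21 genes of IL-6 and STAT3 signalling 0 were called and 5 had an unadjusted p under 0.05, beside 5.38% of all genes. Il6ra, the receptor chain, had 8.85, 9.42 and 8.48 at ZT 16, against 7.71, 7.81 and 8.74 at ZT 4, with ZT 4 replicate 3 inside the range of ZT 16 (0.83 ± 0.34, adjusted p 0.743).

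The same contrast was made in WT liver, from arrays that TB liver does not share. In WT 222 genes were called (1.00%), 106 higher (0.478%) and 116 lower (0.523%), and 34 genes were called in both genotypes, which is 82.9% of the TB calls and 15.3% of the WT calls. All 41 TB calls had the same sign in WT, and 219 of the 222 WT calls had the same sign in TB (98.6%), beside 60.3% of all genes. The median size of the difference over the genes called in TB was 0.91 in TB and 1.05 in WT. Over the genes called in WT it was 0.51 in TB and 0.78 in WT, and each of these medians is tilted by the genotype its genes were chosen on. Over all genes the median size was 0.10 in TB and 0.11 in WT, and across genes, which are not independent replicates, the differences had Pearson r = 0.49 and Spearman rho = 0.33.

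**Figure D5:**
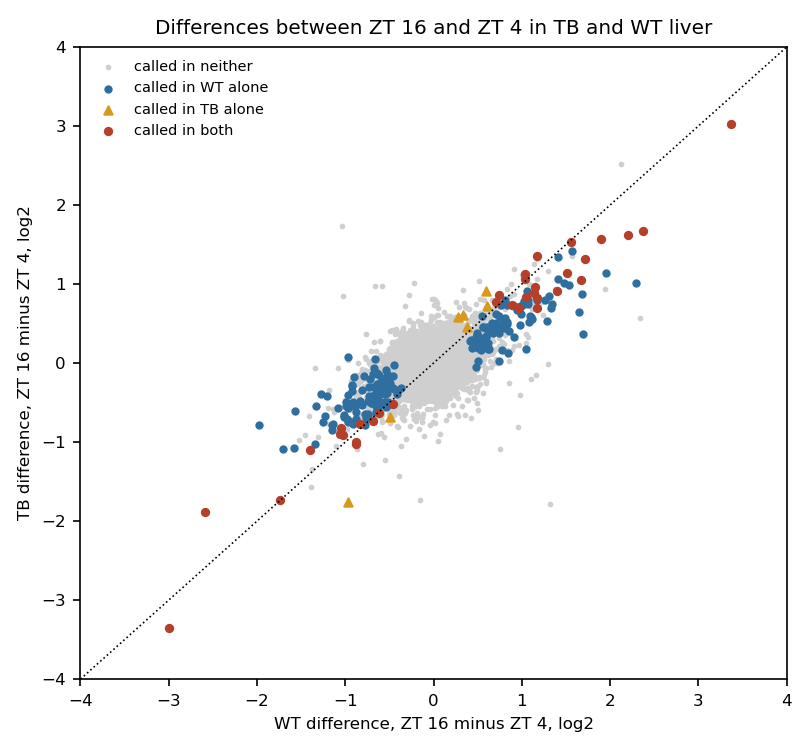
Difference between ZT 16 and ZT 4 of each of 22180 genes in TB liver (vertical axis) against WT liver (horizontal axis), both on the log2(intensity + 16) scale, with symbols for genes called in both, in TB alone, in WT alone and in neither and a dotted line of equality. The 34 genes called in both genotypes lie in the upper right and lower left.

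The difference of the differences, TB minus WT, passed the threshold for 0 genes in limma, with 435 at an unadjusted p under 0.05 (1.96%) and a smallest adjusted p of 1. A count of 41 in TB beside 222 in WT is therefore no tested difference between the genotypes. Intervals of 95% leave room for differences in single genes. Nr1d1 differed by -3.36 in TB and by -3.00 in WT, and the interval of the difference was -1.44 to 0.72. For Usp2 it was -0.94 to 0.27, for Per1 -1.55 to 0.40, for Per3 -0.996 to 0.196, for Cry1 -0.33 to 0.70 and for Npas2 -0.03 to 1.46.

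Several clock genes had intervals clear of 0 before adjustment. Hlf differed by 0.17 in TB and by 0.78 in WT (interval -1.02 to -0.20, unadjusted p 0.00509), Ciart by 0.88 and 1.68 (-1.49 to -0.11, unadjusted p 0.024), Wee1 by 1.67 and 2.38 (-1.28 to -0.13, unadjusted p 0.0188) and Arntl by -0.10 and -0.73 (0.08 to 1.18, unadjusted p 0.0271), with TB given before WT. None of these passed with adjustment. Hlf had 8.04, 8.09 and 8.12 at TB ZT 16 and 7.92, 7.95 and 7.86 at TB ZT 4. Its WT means were 8.55 ± 0.07 at ZT 16 and 7.77 ± 0.08 at ZT 4 (SD, n = 3 each). Of the 222 genes called in WT, Alas1 and Cyp7a1 are examples. Alas1 differed by 1.02 in TB and by 2.29 in WT (interval -2.41 to -0.14, limma unadjusted p 0.0293). Its WT ZT 4 arrays were spread widely, at 8.36, 9.35 and 10.21. Cyp7a1 differed by 0.37 in TB and by 1.70 in WT. Neither genotype difference passed with adjustment.

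The smallest unadjusted p of the genotype difference were those of Rnd1, Ppp1r14b, Mfap3l, Cd4, Zfp395, Fxyd4, Grk5 and Rbm20, from 0.00099 to 0.00394, with an adjusted p of 1 each. Rnd1, a small GTPase, differed by 0.07 in TB and by -0.97 in WT, where it was called (interval 0.46 to 1.62). Ppp1r14b, an inhibitor of protein phosphatase, differed by 0.13 in TB and by 0.84 in WT (interval -1.14 to -0.29). Grk5, a kinase of G protein-coupled receptors, had 5.91, 5.57 and 5.92 at TB ZT 16, against 6.68, 6.43 and 6.09 at TB ZT 4. Its difference was -0.60 in TB and -1.57 in WT (interval 0.34 to 1.6), and its arrays did not overlap between the times in either genotype. Cd4, a T cell and monocyte receptor, differed by 0.72 in TB and by -0.32 in WT (interval 0.41 to 1.67) at levels between 4.99 and 6.31 in the TB arrays, close to the floor of the scale.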

How the data were processed

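RNA of mouse liver was measured on 1-colour Affymetrix arrays, 36 in all, 3 for each of 12 groups of genotype and Zeitgeber time, of which 6 carry the comparison described. Groups and replicate numbers come from the sample titles, and 1 item of the TB genotype is not reported here. The deposited values are linear intensity values made by the authors, 1 for each of 41345 probe sets. Affymetrix Expression Console 1.1.1 with PLIER 2.0 made them, per the submitters' processing notes, and how arrays were normalized to each other is not given in the sources used here. The median intensity of an array ran from 36.3 to 43.3, no 2 arrays held the same values, and 23.0% of values were under 16. Precision is limited by the 3 arrays in a group.

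Gene names came from the platform annotation, which gave 1 symbol for 23521, several for 1814 and none for 16010. Of those with 1 symbol 23328 (99.2%) matched the RefSeq table of GRCm38.p6 by Entrez identifier. Of several probe sets of a gene (1082 genes) the one with the highest mean was used, which left 22180 genes. Values were taken as log2(intensity + 16) without filter or further normalization. Tests used limma 3.58.1 in R 4.3.3 (lmFit, eBayes) with 12 group means over 36 arrays, two-sided, with Benjamini-Hochberg adjustment over 22180 genes and a threshold of 0.05. Tables and figures were made with Python 3.11.15 and pandas 2.3.3. In a test on simulated data of the TB comparison, with 22180 genes, 78% of 100 genes changed by 1 log2 and 34% of 100 genes changed by 0.5 were recovered. The changed genes were drawn from those above the median level. The simulated noise was independent between arrays, without array sets or replicate correlation.

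Deviations from the group means of TB arrays with the same replicate number correlated at r = 0.44, 0.32 and 0.15 between ZT 16 and ZT 4. Between different numbers r ran from -0.39 to 0.15, so these values do not settle whether the numbers are pairs. The 0.44 is that of replicate 1, which lay in the smaller array set at both times. At other times another number lay there, such as replicate 3 at TB ZT 0. The main fit has no block. Fits with the replicate number as a block are alternatives, and their values are given where they end a call. The array sets were found from the first component of deviations from the group means over probe sets without a symbol (28.6% of their variance). The members, the 45 gene lists (787 symbols, 708 measured, matched by exact symbol) and the tests were chosen with earlier results of these data known. Named genes are the 15 largest called differences in each direction without overlap between the times, leaving out predicted and unnamed models and olfactory receptors, all clock list members, up to 4 genes per pathway list by smallest p, the 8 smallest p of the genotype difference and sex chromosome genes. Other members of the lists are given as examples chosen after their values were seen. Promoter windows are RefSeq's, 32851 in all for 27025 genes. Alternatives were quantile normalization or median centring, a pseudocount of 1, a filter on the dimmest genes, the mean of probe sets, fewer arrays, replicate number or array set as a block, Xist as a covariate, robust fitting with a variance trend and each array left out.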

Additional observations from a re-analysis of the deposited data

How the results depend on the processing

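Of the 41 genes called in TB liver (26 higher and 15 lower at ZT 16), the count became 27 with a pseudocount of 1 (9 lower), 70 with quantile normalization (43 higher, 27 lower), 67 with the dimmest genes removed (33 lower), 23 with only the arrays compared (16 higher, 7 lower) and 12 with only the 18 TB arrays (7 higher, 5 lower). It became 12 in the larger array set (9 higher, 3 lower), and 9 of the 41 were kept there and 14 with only the arrays compared. With the array set as a block 95 genes were called (43 higher, 52 lower), all 41 among them. Median centring, the mean of probe sets, a variance trend with robust fitting and Xist as a covariate kept the total within 1.5 times. With the replicate number as a block over 36 arrays, 32 of the 41 were kept, and over the 6 arrays alone 98 genes were called (56 higher, 42 lower), 31 of the 41 among them. Blocked values that end a call stand beside the gene. Without 1 array the count lay between 8 and 22 (5 to 14 higher, 3 to 11 lower). The 222 WT calls became 379 with the array set as a block, 115 in the larger set and 106 to 153 without 1 array. No call of the genotype difference was made in any of these limma settings. No named gene called in the chosen setting changed sign. Of list medians, 813 of the values under other settings moved by less than the spread of replicates and 42 by more. The causes were not tested.

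In the 6 arrays, differences of genes near 16 intensity units are understated by the scale. On simulated data of this size, 34% of genes changed by 0.5 log2 were recovered, so a gene that was not called is not shown to be equal at both times.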

Other observations

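Genes that differ between male and female mouse liver held no calls between the times in TB liver. Of 19 male-biased genes 0 were called, with a median of -0.02, and of 18 female-biased genes 0 were called, with a median of 0.08. Cyp2a4, a female-biased steroid hydroxylase, had 8.97, 8.89 and 8.98 at ZT 16, against 7.80, 8.06 and 8.03 at ZT 4 (0.98 ± 0.25, adjusted p 0.112), and it was called in WT liver with a difference of 1.53. Cyp3a25, a drug-metabolizing cytochrome P450, had 8.53, 8.53 and 6.85 at ZT 16, against 9.79, 9.04 and 9.37 at ZT 4 (-1.43 ± 0.35, adjusted p 0.079). ZT 16 replicate 3 was the lowest, and without it the difference was -0.87. The Y-linked gene Eif2s3y lay between 7.28 and 8.10 in all 6 arrays and Xist between 5.26 and 5.62, each with overlap between the times. The Y-linked genes Kdm5d (-0.37 ± 0.13, adjusted p 0.467) and Uty (-0.28 ± 0.13, adjusted p 0.9235) were lower at ZT 16 without overlap, beside 5.99% of all genes. Neither was called.

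Of 33 genes of amino acid breakdown and the urea cycle 1 was called, Amt, 5 were higher and 7 lower without overlap between the times, beside 5.79% and 5.99% of all genes, and 7 had an unadjusted p under 0.05, beside 5.38%. Asl, which splits argininosuccinate in the urea cycle, had 10.84, 11.14 and 11.27 at ZT 16, against 9.94, 10.16 and 10.35 at ZT 4 (0.94 ± 0.23, adjusted p 0.0933). Cbs, of the transsulfuration pathway, had 9.73, 9.95 and 10.36 at ZT 16, against 10.55, 10.42 and 10.77 at ZT 4 (-0.57 ± 0.18, adjusted p 0.323). Of 18 antioxidant targets of NRF2 and 23 immediate early genes 0 were called. Egr1, an immediate early factor, had 6.26, 6.59 and 5.99 at ZT 16, against 8.01, 6.07 and 7.71 at ZT 4, with ZT 4 replicate 2 within the range of ZT 16 (-0.98 ± 0.48, adjusted p 0.926). Markers of Kupffer cells and macrophages had a median difference of 0.01 in TB and of -0.50 in WT, and 0 of the 12 were called in either genotype. Their mean deviation from the average over all arrays was -0.39, -0.74 and -0.37 in WT at ZT 16. At WT ZT 4 it was 0.34, 0.17 and -0.43, so the WT times overlapped. Endothelial markers had medians of -0.01 in TB and -0.35 in WT. A difference between the genotypes in these lists was not tested.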
